A study of Mus musculus with 8 samples.

Results

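*Gpt2*, which encodes the mitochondrial alanine aminotransferase, and 8 related genes of amino group transfer and glutamate metabolism were examined in interscapular brown adipose tissue (BAT) of mice that lack HuR in their adipocytes. *Gpt2* had been chosen because its level in these same libraries was much lower in the group labelled as the knockout, so its difference between the groups is described below without a test. The other 8 genes, *Gpt*, *Got1*, *Got2*, *Oat*, *Agxt2*, *Abat*, *Glud1* and *Glul*, had been chosen by what their enzymes do, with earlier results of these data known. All 9 are among the 33641 gene symbols measured, and 8 of them had enough counts to be among the 14851 genes tested, with *Agxt2* the exception.

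Poly(A) RNA was sequenced in 8 libraries of BAT from C57BL/6 mice at 28 weeks of age. By their labels, A7, A8 and A12 came from wild-type controls, and A24, A25, A26, A29 and A31 came from HuR knockout animals (*Adipo-HuR-/-*), in which Cre driven by the adiponectin promoter removes floxed HuR from adipocytes and leaves it in the other cells of the tissue. Controls in the study were littermates of 3 genotypes (*wt/wt-cre+*, *flox/flox-cre-* and *wt/flox-cre-*), and which of these each control library represents is not given, nor are the sex and diet of the mice. The study's legend states 5 control and 3 knockout samples, the reverse of the labels, and the labels were followed here.

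Sequencing depth, as the sum of estimated counts, was 50673814 for A12, 51751002 for A8 and 60622522 for A7. It was 67498055 for A26, 58727739 for A31 and 50893173 for A29, but only 18264754 for A24 and 17558090 for A25. These shallow libraries, in which low levels are the least precise, both carry the *Adipo-HuR-/-* label. Levels within a gene are given as CPM, for which the counts of each library are brought to the same total after TMM scaling by the bulk of its genes. Levels of different genes are compared as TPM, for which counts are first divided by transcript length. Ratios of the counts of a pair of genes are compared only between libraries, and do not say which gene of the pair is the more abundant. Differences are log2 fold changes of *Adipo-HuR-/-*-labelled over control-labelled libraries, with p-values adjusted over all 14851 genes, and a gene passed the threshold at an adjusted p of at most 0.05 and a fold change of at least 1.5. Of all genes tested 0.707% passed in edgeR and 5.51% in DESeq2, 17% had an unadjusted p under 0.05 in edgeR, and for 11.5% the groups did not overlap; counts for lists of genes below stand against these shares.

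Aminotransferases move an amino group from an amino acid to an α-keto acid, with pyridoxal phosphate, the active form of vitamin B6, as cofactor. Alanine aminotransferases interconvert alanine and pyruvate against glutamate and α-ketoglutarate, and exist as a cytosolic enzyme (*Gpt*) and a mitochondrial one (*Gpt2*). Aspartate aminotransferases (*Got1* in the cytosol, *Got2* in mitochondria) are part of the malate-aspartate shuttle, which carries reducing equivalents into mitochondria. Glutamate dehydrogenase (*Glud1*) links glutamate to the TCA cycle, and glutamine synthetase (*Glul*) makes glutamine from glutamate and ammonia. Brown adipocytes are rich in mitochondria and use amino acids as well as lipid and glucose as fuels.

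*Elavl1*, which encodes HuR, had 50.6, 48.0 and 49.2 CPM in A7, A8 and A12, and 61.9, 47.2, 43.4, 61.3 and 61.2 CPM in A24, A25, A26, A29 and A31. Its total was not lower under the *Adipo-HuR-/-* label (log2 fold change 0.16, standard error 0.162, edgeR adjusted p = 0.667) and does not check the labels. Every direction below therefore rests on the labels alone. The study reports *Atp2a1*, *Ryr1* and other sarcoplasmic calcium cycling genes as reduced in the knockout. The 19 skeletal muscle markers described below were likewise lower under the *Adipo-HuR-/-* label. The study's directions come from these same libraries and are no separate check of the labels. Division of the *Elavl1* count among its transcripts did differ between the groups (edgeR diffSpliceDGE adjusted p = 0.0357, from a test that made more false calls than its nominal rate on simulated counts), with the longer protein-coding transcript at 13.1 ± 3.21 CPM (SD, n = 3) under the control label and 5.21 ± 1.22 CPM (SD, n = 5) under the other. That transcript's own difference in level did not pass the threshold (log2 fold change −1.39, standard error 0.271, edgeR adjusted p = 0.227). *Ccl25*, on the opposite strand, overlaps *Elavl1* exons and had a mean of 4.68 CPM.

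Markers of brown adipocytes were abundant in all 8 libraries. Their 10 genes summed to between 7636 CPM (A7) and 17651 CPM (A8), none of the 10 passed the threshold in edgeR (1 had an unadjusted p under 0.05) or in DESeq2, and *Ucp1*, with the highest mean CPM, ranged from 4251 to 11438 CPM with overlapping groups. The 7 general adipocyte markers, among them *Fabp4*, likewise had none past the threshold in edgeR (2 with an unadjusted p under 0.05) or DESeq2. Skeletal muscle markers set some libraries apart. Their 19 genes summed to 4262 CPM in A7 and 2713 CPM in A8, but to 64.4 CPM in A12, and among the *Adipo-HuR-/-*-labelled libraries to 481 CPM in A31 against 60.7, 39.8, 51.4 and 57.7 CPM in A24, A25, A26 and A29. *Myh4*, a fast myosin heavy chain with the highest mean CPM of them, had 1048 CPM in A7, 457 CPM in A8 and 106 CPM in A31, and was at 0 in A25, A26 and A29. All 19 had a log2 fold change below 0, with 3 of them (*Myh7*, *Myl1* and *Myl2*) past the threshold in edgeR, where 16 had an unadjusted p under 0.05, and 7 past it in DESeq2, which gave no p for 2 of the 19 (0.707%, 17% and 5.51% of all genes). Skeletal muscle RNA was thus unequally present in the groups, and A12 was the 1 control-labelled library with little of it. Of the 7 macrophage and lymphocyte markers, among them *Csf1r*, and the 3 endothelial markers, among them *Cdh5*, none passed the threshold in edgeR (1 and 0 with an unadjusted p under 0.05) or DESeq2. Among the 3 Schwann cell markers, among them *Mbp*, none did either in edgeR (0 with an unadjusted p under 0.05) or DESeq2. Hepatocyte markers are of interest since several of these enzymes are abundant in liver. They summed to between 0.113 CPM (A7) and 0.272 CPM (A12) under the control label and between 0.332 CPM (A25) and 2.78 CPM (A29) under the other. *Alb*, with the highest mean CPM, had 1 count in A7 and 105 in A29, and was at 0 in A8, A12 and A25. Of these 4 markers 1, *Apoa1*, had enough counts to be tested and did not pass the threshold (edgeR adjusted p = 0.421).

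*Gpt2* was abundant in the control-labelled libraries and low in all the others. It had 97.9, 127 and 82.9 CPM in A7, A8 and A12. In A24, A25, A26, A29 and A31 it had 10.2, 7.16, 10.8, 6.88 and 10.1 CPM. The lowest control-labelled library thus stood 7.69-fold above the highest *Adipo-HuR-/-*-labelled one. The means were 103 ± 22.5 CPM (SD, n = 3) and 9.01 ± 1.84 CPM (SD, n = 5), an 11.4-fold difference and a log2 fold change of −3.51 (standard error 0.208). Relative spread within the groups was alike, with coefficients of variation of 21.9% and 20.4%. The transcript was still measured well where it was low, as its estimated counts were 180 in A24 and 151 in A25, the shallow libraries, and between 363 and 727 in A26, A29 and A31. As the tissue was measured in bulk, fewer cells that express a gene and less of its RNA per cell cannot be told apart, here and for every gene below.

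**Figure D1:**
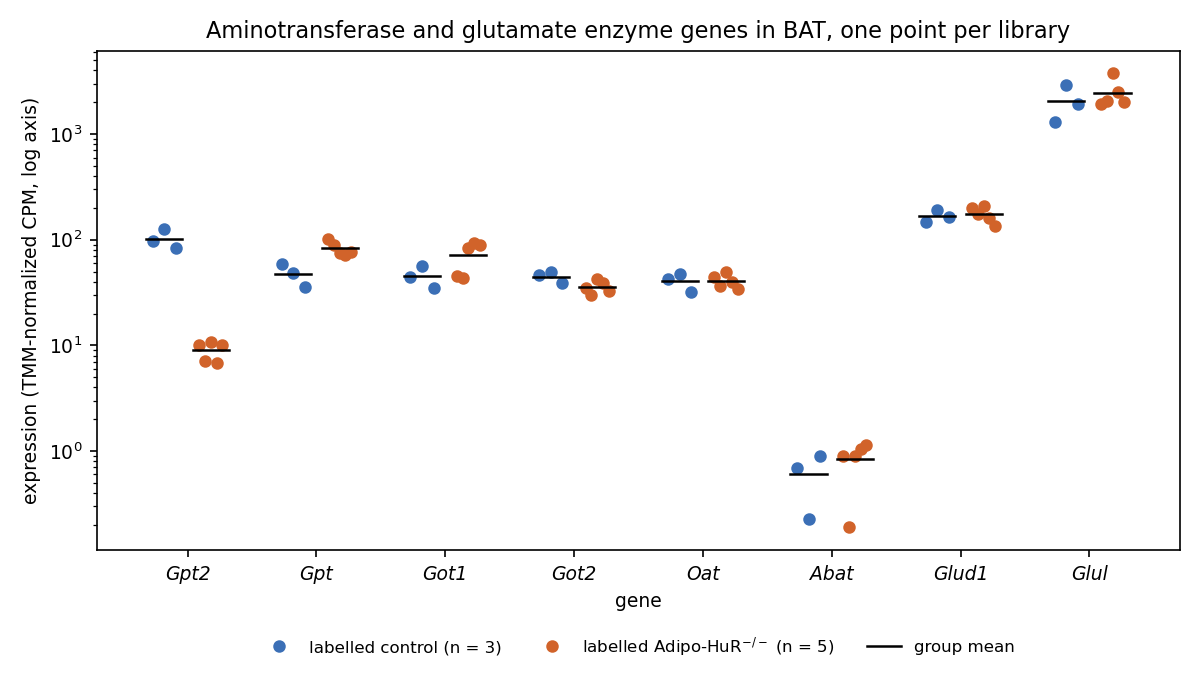
Expression of the 8 genes that passed the filter on low counts, as TMM-normalized CPM on a log axis, with 1 point per library and a line at each group mean. *Gpt2* lies between 82.9 and 127 CPM under the control label and between 6.88 and 10.8 CPM under the *Adipo-HuR-/-* label, whereas the groups overlap for all other genes shown except *Gpt*.

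Since skeletal muscle RNA was unequal between the groups, *Gpt2* is set beside the muscle markers library by library. Under the control label it had 97.9 and 127 CPM in A7 and A8, where muscle markers were high, and 82.9 CPM in A12, where they were low. Under the other label A31, with the most muscle RNA of its group, had 10.1 CPM, above A25 (7.16 CPM) and A29 (6.88 CPM) and below A24 (10.2 CPM) and A26 (10.8 CPM). Without A7, A8 and A31 the log2 fold change of *Gpt2* was −3.25 (standard error 0.268, with A12 the 1 control-labelled library), and with the mean level of the muscle markers as a covariate it was −3.29 (standard error 0.231). These are descriptions of the values by which *Gpt2* was chosen, and the part of muscle RNA in its difference was not tested.

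**Figure D2:**
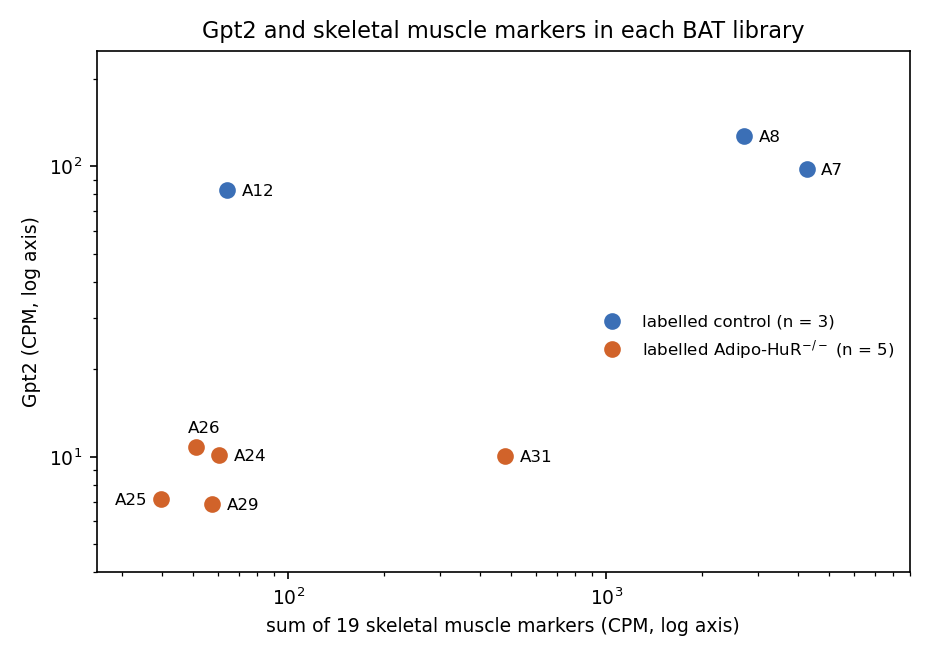
*Gpt2* in each library (CPM, vertical log axis) against the summed level of 19 skeletal muscle markers (CPM, horizontal log axis). The muscle markers sum to 64.4 CPM in the control-labelled library A12 and to 4262 CPM in A7, while *Gpt2* is at 82.9 and 97.9 CPM there.

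The *Gpt2* gene (ENSMUSG00000031700.11) occupies bases 85492576 to 85527560 of chromosome 8 (GRCm38, plus strand). Of its 5 annotated transcripts in the files, the protein-coding ENSMUST00000034136.11, with 12 exons and 3639 bases, held between 96.4% and 99.8% of the gene's estimated count in each library. Its level was 101 ± 22.6 CPM (SD, n = 3) under the control label and 8.80 ± 1.75 CPM (SD, n = 5) under the other, so the difference in the gene total was that of its full-length coding transcript. The remaining transcripts (a nonsense-mediated decay form, a retained intron and short processed transcripts) were too low to be tested. Of the 31-base words of ENSMUST00000034136.11, 5.02% are also in transcripts of other genes, most of them in *Gm5049*, which had 0 counts in all 8 libraries.

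Genes next to *Gpt2* on chromosome 8 did not share its difference. In a window of 250000 bases to either side, chosen after the data were seen, 6 other genes were tested and none passed the threshold in edgeR (1, *Orc6*, had an unadjusted p under 0.05) or DESeq2. *Dnaja2*, which encodes a co-chaperone and lies 10073 bases beyond *Gpt2*, had 91.5, 102 and 123 CPM in A7, A8 and A12 and between 82.8 and 107 CPM in the others (log2 fold change −0.15, standard error 0.151, edgeR adjusted p = 0.662).

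HuR binds AU-rich and U-rich stretches, often in the 3′ untranslated part of an mRNA, so these letters were counted in the sense strand of the GENCODE M21 transcript sequences. The 3′ untranslated part of *Gpt2* has 1934 bases. It holds the word ATTTA once, inside a single TATTTAT, and 3 separate runs of at least 7 T, the longest of 10. Among 2086 tested genes with an untranslated part of similar length (0.8 to 1.25 times), 89% had ATTTA, 39.3% had TATTTAT and 58.9% had TTTTTTT, and the median number of ATTTA was 3.0. *Gpt2* thus had the same words as many genes of its length and fewer ATTTA than their median. The single TATTTAT and the 3 runs of T, with the counted words in capitals and the longest run whole, are shown as the places to which an AU-rich or U-rich reading of *Gpt2* would refer; a match is a description of the sequence and not a binding site. They lie on the plus strand of GRCm38 at chr8:85527100-85527128, chr8:85525842-85525870, chr8:85527040-85527068 and chr8:85527185-85527214, all in the last exon.
TATTTAT word: tagagggttagTATTTATagtcctaacaa
First run of T: ttgttttgttcTTTTTTTaaatgcaacca
Second run of T: aagctagaataTTTTTTTatatttttgta
Longest run of T: tgtttacatgTTTTTTTTTTaagatgacaa
Among the other genes, *Got1* held 4 ATTTA in 666 bases, *Oat* 3 in 692, *Abat* 4 in 2942, *Glud1* 2 in 1542 and *Glul* 2 in 1541. *Gpt*, with 176 bases, and *Got2*, with 995 bases, held none of the 3 words. *Got1* and *Glud1* held all 3 words as *Gpt2* did, with TTTTTTT at 1 and 7 overlapping places against 6 in *Gpt2*. *Glul* held TTTTTTT at 10. The part of these words in any difference between the groups was not tested.

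*Gpt*, the cytosolic alanine aminotransferase, stood on the opposite side from *Gpt2*. It had 58.9, 48.1 and 35.4 CPM in A7, A8 and A12, and 102, 88.4, 74.2, 71.9 and 76.8 CPM in A24, A25, A26, A29 and A31. The groups did not overlap, with the lowest *Adipo-HuR-/-*-labelled library 1.22-fold above the highest control-labelled one. The means were 47.5 ± 11.7 CPM (SD, n = 3) and 82.7 ± 12.6 CPM (SD, n = 5). The log2 fold change of 0.80 (standard error 0.198) did not pass the threshold in edgeR (unadjusted p = 0.00221, adjusted p = 0.0887). It did pass in DESeq2's Wald test (adjusted p = 0.00694), which called 5.51% of all genes, and over all alternatives the adjusted p lay between 0.00694 and 0.243 with the log2 fold change between 0.63 and 1.25. Among all genes tested the groups did not overlap for 11.5%. *Gpt* (chromosome 15, 76695716 to 76699686, plus strand) has a single transcript in the files and shares no 31-base word with another gene.

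Within each library, the balance of the alanine aminotransferase transcripts differed by label. In TPM, *Gpt2* made up 48.5%, 56.9% and 53.7% of the sum of *Gpt* and *Gpt2* in A7, A8 and A12, so that these transcripts were about equally abundant there. It made up between 4.02% (A25) and 7.41% (A26) under the *Adipo-HuR-/-* label. The sum itself was 106, 57.2 and 56.9 TPM in A7, A8 and A12, and 72.1, 90.5, 63.3, 58.6 and 70.0 TPM in A24, A25, A26, A29 and A31, with overlapping groups. These shares use the *Gpt2* level that chose the gene and were not tested.

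*Got1*, the cytosolic aspartate aminotransferase (chromosome 19, 43499752 to 43524605, minus strand), was uneven among the libraries labelled *Adipo-HuR-/-*. It had 44.9, 56.5 and 35.0 CPM in A7, A8 and A12. It had 45.9 CPM in A24 and 43.6 CPM in A25, inside the control-labelled range, but 83.4, 93.9 and 88.9 CPM in A26, A29 and A31. The log2 fold change was 0.65 (standard error 0.295) and did not pass the threshold (edgeR adjusted p = 0.299). A24 and A25 are the shallow libraries, and without them it was 0.96 (standard error 0.202, edgeR adjusted p = 0.147, with a range over all alternatives of 0.127 to 0.605). The part of depth in this split was not tested.

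*Got2*, the mitochondrial aspartate aminotransferase (chromosome 8, 95864134 to 95888547, minus strand), had 46.3, 49.2 and 38.8 CPM in A7, A8 and A12, and 35.2, 29.8, 42.8, 38.9 and 32.5 CPM in A24, A25, A26, A29 and A31. The groups overlapped at A12, A26 and A29, and the log2 fold change of −0.32 (standard error 0.158) did not pass the threshold (edgeR adjusted p = 0.341). Of the 31-base words of its main transcript 38.9% are also in the pseudogene *Got2-ps1*, which had at most 0.0365 CPM in any library.

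Taken as a ratio within each library, the levels of the aspartate aminotransferases did not overlap between the labels. Counts of *Got1* per count of *Got2* were 0.969, 1.15 and 0.902 in A7, A8 and A12. They were 1.30, 1.46, 1.95, 2.42 and 2.74 in A24, A25, A26, A29 and A31. Taken alone, neither gene separated the labels, and how often the ratio of another pair of genes does so was not examined. The difference was 0.92 on the log2 scale, and between 0.79 and 1.06 without any 1 library. This ratio and that of *Glul* to *Glud1* were chosen after the data were seen, so that no p is given for either.

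Ornithine aminotransferase (*Oat*; chromosome 7, 132557478 to 132576398, minus strand), a mitochondrial enzyme between ornithine, glutamate and proline, had overlapping groups. It had 42.2, 47.5 and 32.0 CPM in A7, A8 and A12, and between 34.1 CPM (A31) and 49.8 CPM (A26) in the others, with a median of 39.7 CPM. The log2 fold change was 0.01, with a 95% interval of −0.39 to 0.41 (edgeR adjusted p = 0.979). *Abat*, the mitochondrial GABA aminotransferase (chromosome 16, 8513429 to 8621568, plus strand), was near the limit of measurement. It had 0.696, 0.228 and 0.898 CPM in A7, A8 and A12, and 0.903, 0.190, 0.889, 1.05 and 1.14 CPM in A24, A25, A26, A29 and A31. With 4 counts in A25 and 9 in A8, its log2 fold change of 0.47 had a 95% interval of −0.77 to 1.70 (edgeR adjusted p = 0.722), and it lay between 0.10 (without A8) and 0.85 (without A12) with any 1 library left out. *Agxt2*, a mitochondrial alanine-glyoxylate aminotransferase known from liver and kidney (chromosome 15, 10358532 to 10410153, plus strand), had 1 count in A24, 1 in A26 and 0 in the other 6 libraries. A count of 0 allows up to 3 counts, or between 0.0454 CPM (A31) and 0.142 CPM (A25), and no comparison was possible at this depth.

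*Glud1* (chromosome 14, 34310727 to 34345265, plus strand) and *Glul* (chromosome 1, 153899944 to 153909723, plus strand), which are not aminotransferases, did not separate by label. *Glud1* had 148, 193 and 165 CPM in A7, A8 and A12, and 202, 177, 208, 161 and 136 CPM in A24, A25, A26, A29 and A31. Its log2 fold change was 0.07, with a 95% interval of −0.33 to 0.47 (edgeR adjusted p = 0.887). *Glul* varied more, from 1289 CPM (A7) to 2934 CPM (A8) under the control label and from 1944 CPM (A24) to 3750 CPM (A26), with a median of 2062 CPM, under the other. The log2 fold change of 0.27 had a 95% interval of −0.43 to 0.96 (edgeR adjusted p = 0.718), so that the spread between libraries was wider than the difference, and it lay between 0.02 (without A7) and 0.62 (without A8) with any 1 library left out. The ratio of *Glul* to *Glud1* counts was 8.68, 15.2 and 11.6 in A7, A8 and A12 and between 9.65 (A24) and 18.0 (A26) in the rest, and the groups overlapped. Other genes hold 23.4% of the 31-base words of the main *Glul* transcript and 13% of those of *Glud1*, mainly pseudogenes (*Glns-ps1* and *Glud-ps*) that had at most 0.389 and 0.0864 CPM. *Teddm2*, on the opposite strand, overlaps *Glul* exons and had a mean of 1.58 CPM.

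Per length, the order of the 9 genes changed in the place of *Gpt2*. By mean TPM under the control label it was *Glul* (911 ± 79.4, SD, n = 3), *Glud1* (79.3 ± 22.8), *Gpt2* (38.1 ± 11.4), *Gpt* (35.2 ± 16.7), *Got1* (29.5 ± 7.55), *Oat* (24.3 ± 7.30), *Got2* (22.9 ± 6.58), *Abat* (0.268 ± 0.231) and *Agxt2*. *Gpt2* was above *Got1*, *Oat* and *Got2* in all 3 libraries, whereas *Gpt* was above *Gpt2* in A7, *Got1* above *Gpt* in A8 and *Got2* above *Oat* in A12. Under the *Adipo-HuR-/-* label it was *Glul* (1326 ± 417, SD, n = 5), *Glud1* (89.0 ± 17.7), *Gpt* (67.0 ± 12.2), *Got1* (53.8 ± 19.4), *Oat* (27.5 ± 3.70), *Got2* (20.6 ± 2.62), *Gpt2* (3.86 ± 0.788), *Abat* (0.293 ± 0.165) and *Agxt2*. There *Got1* was above *Gpt* in A26, A29 and A31, whereas *Gpt2* was below *Got2* in all 5 libraries.

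Of the 7 genes other than *Gpt2* that could be tested, 0 passed the threshold in edgeR, against 0.707% of all genes (105 of 14851). In the same test 1 of the 7, *Gpt*, had an unadjusted p under 0.05, against 17% of all genes, and DESeq2's Wald test called 1, again *Gpt*, against 5.51% of all genes. The median log2 fold change of the 7 was 0.27, which is the value of *Glul*, and that of all genes tested was 0.000983. The *Glul* value lay between 0.02 and 0.62 with any 1 library left out. Of the 7, 6 were above 0, but 3 of those 6 (*Oat*, *Abat* and *Glud1*) changed sign under an alternative. Read per transcript, none of the 17 tested transcripts of these 7 genes passed the threshold in edgeR, where 0.00957% of all transcripts (4 of 41808) did. In the same test 2 of the 17, of *Gpt* and *Glul*, had an unadjusted p under 0.05. No share over all transcripts is given here, so nothing is drawn from this count. Among *Glul* transcripts the smallest adjusted p (0.571, edgeR) was that of a processed transcript of 442 bases. It held between 0.0403% and 0.492% of the gene's count in each library. The main coding transcript of *Glul* differed by 0.20 on the log2 scale, against a standard error of 0.334. Transcripts were not tested with DESeq2. The division of counts among transcripts could be tested in *Got1*, *Glud1* and *Glul*, and was not called in any of them (edgeR diffSpliceDGE adjusted p = 1 for each, unadjusted p from 0.622 to 0.695, against 0.921% of 8900 genes called). For each of these the main coding transcript held at least 91.7% of the gene's count in every library.

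Other aminotransferases had 1 gene past the threshold among 9 tested in edgeR, and DESeq2 called the same gene (0.707% and 5.51% of all genes). In edgeR 1 of the 9, again that gene, had an unadjusted p under 0.05 (17% of all genes). Of 13 listed, 9 were tested and *Aadat*, *Agxt*, *Etnppl* and *Tat*, known from liver, kidney or brain, were too low. The gene past the threshold was *Got1l1*, named for its likeness to *Got1*, on chromosome 8 from 27197459 to 27223828. It was lower under the *Adipo-HuR-/-* label, with 2.35, 1.47 and 1.25 CPM in A7, A8 and A12 against 0.338, 0.285, 0.548, 0.379 and 0.318 CPM in A24, A25, A26, A29 and A31. Its log2 fold change was −2.14 (standard error 0.346, edgeR adjusted p = 0.0303) and rests on 6 counts in A24 and 6 in A25. The call was lost without A7 (adjusted p = 0.115), A25 (0.0931), A26 (0.0608), A29 (0.0823) or A31 (0.0733) in edgeR. It was also lost without A24 and A25 (0.14), with the muscle marker covariate (0.209), with the most counted transcript (0.333) and with A12 as the 1 control (log2 fold change −1.65). Over all alternatives the adjusted p ranged from 2.36e-05 to 0.333, and the log2 fold change lay between −2.34 and −1.65. *Bcat2*, the mitochondrial branched-chain aminotransferase and the gene of the list with the highest mean CPM, ranged from 40.6 to 81.3 CPM under the control label and from 50.9 to 101 CPM under the other. The median log2 fold change of the 9 was 0.03.

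Enzymes of glutamate, glutamine and proline metabolism had none past the threshold among 13 tested in edgeR, where 4 had an unadjusted p under 0.05 (17% of all genes did). DESeq2 called 1 of them, *Prodh*, the proline dehydrogenase (higher). In 3 of the 13 the groups did not overlap, all lower under the *Adipo-HuR-/-* label, against 11.5% of all genes in either direction. *Gclc*, the catalytic subunit of the enzyme that joins glutamate and cysteine on the way to glutathione, had at least 18.7 CPM (A8) under the control label and between 13.2 and 15.8 CPM under the other (log2 fold change −0.53, standard error 0.139, edgeR adjusted p = 0.0976). *Gclm*, the partner subunit of *Gclc*, had 43.7, 51.7 and 43.9 CPM in A7, A8 and A12 and between 25.3 and 38.3 CPM in the others (log2 fold change −0.54, standard error 0.159, edgeR adjusted p = 0.124). The other 1 was *Aldh5a1*, which acts after *Abat* in GABA breakdown and is named because it completes the count. The list's median log2 fold change was 0.19.

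Of the malate-aspartate shuttle and glutamate carriers, 6 were tested and none passed the threshold in edgeR (2 with an unadjusted p under 0.05), while DESeq2 called 1, *Slc25a12* (17% and 5.51% of all genes). *Slc25a12*, an aspartate-glutamate carrier, had 11.8 CPM in A7 and 7.87 in A8 but 2.64 in A12, and between 2.13 and 3.15 CPM under the other label (log2 fold change −1.46, standard error 0.381, edgeR adjusted p = 0.0976). It was thus high in the pair of libraries with the most skeletal muscle RNA, and the part of that RNA in its difference was not tested. *Slc25a22*, a mitochondrial glutamate carrier, had 65.4, 113 and 92.0 CPM in A7, A8 and A12 and between 107 and 150 CPM in the others (log2 fold change 0.59, standard error 0.204, edgeR adjusted p = 0.175). The list's median log2 fold change was 0.18.

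Pyruvate and lactate genes, on the other side of the alanine aminotransferase reaction, had none past the threshold among 12 tested in edgeR (1 with an unadjusted p under 0.05) or in DESeq2, and their median log2 fold change was −0.17. *Dlat*, the E2 subunit of pyruvate dehydrogenase, was the 1 gene of the list whose groups did not overlap (11.5% of all genes), with 756, 689 and 546 CPM in A7, A8 and A12 and between 326 and 515 CPM in the others (log2 fold change −0.59, standard error 0.199, edgeR adjusted p = 0.168). *Mpc1*, a subunit of the mitochondrial pyruvate carrier, had between 885 and 1535 CPM under the control label and between 747 and 1128 CPM under the other (edgeR adjusted p = 0.535).

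Alanine and glutamine transporters had none past the threshold among 8 tested in edgeR (3 with an unadjusted p under 0.05) and 1, *Slc38a3*, in DESeq2 (17% and 5.51% of all genes), with a median log2 fold change of 0.08. *Slc38a3* had 3.64 and 1.06 CPM in A7 and A8, but 0.0627 CPM in A12 and between 0.0758 and 0.318 CPM under the other label. Like *Slc25a12* it was high where the muscle markers were high, and its log2 fold change of −3.06 (standard error 0.892) did not pass the threshold in edgeR (adjusted p = 0.122). *Slc38a2*, a widely expressed transporter of alanine and glutamine, had 90.5, 69.7 and 143 CPM in A7, A8 and A12 and between 52.7 and 75.7 CPM in the others (log2 fold change −0.70, standard error 0.223, edgeR adjusted p = 0.145).

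**Figure D3:**
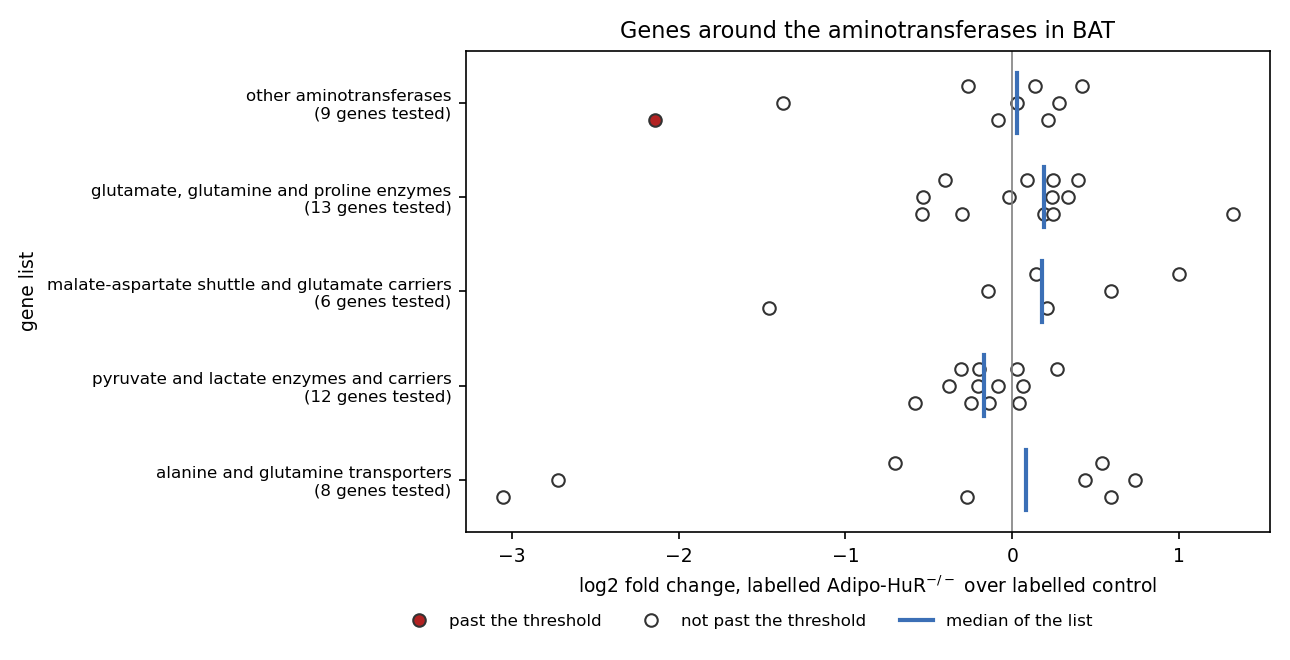
Log2 fold changes (*Adipo-HuR-/-*-labelled over control-labelled libraries, horizontal axis) of the tested genes in 5 lists, 1 point per gene, filled where the gene passed the threshold, with a line at the median of each list. *Got1l1*, at −2.14, is the 1 filled point, and the medians lie between −0.17 and 0.19.

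Genes whose levels followed *Gpt2* most closely over the 8 libraries were *Cacnb4* (Pearson r = 0.995 in log2 CPM), *Sms* (r = 0.983), *Ddx59* (r = 0.982), *Tle4* (r = 0.977) and *Dlst* (r = 0.974), of 11848 genes ranked. The libraries form separate groups on *Gpt2*, so that a gene ranks high when it differs in the same direction with little spread, and r is a measure of likeness without a test. *Cacnb4*, a calcium channel subunit, had 6.77, 8.71 and 7.33 CPM in A7, A8 and A12 and between 0.949 and 1.56 CPM in the others. *Dlst*, the E2 subunit of the α-ketoglutarate dehydrogenase complex, which uses the keto acid that alanine aminotransferase forms from glutamate, had a mean of 1036 ± 81.7 CPM (SD, n = 3) under the control label and of 503 ± 63.2 CPM (SD, n = 5) under the other. *Sms*, spermine synthase, had between 7.13 and 8.84 CPM under the control label and between 3.42 and 3.98 CPM under the other. Among the 6 other genes of the aminotransferase group with a mean of at least 1 CPM, which leaves out *Abat* and *Agxt2*, *Got2* came nearest to *Gpt2* (r = 0.727) and *Gpt* was farthest (r = −0.824).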

How the data were processed

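For each BAT library the authors deposited 1 table of estimated counts, by transcript, on GRCm38 and without normalization; a read that matched more than 1 transcript was shared out among them. Reads were mapped by the authors in CLC Genomics Workbench. The program that wrote the estimated counts, and whether it used strand, are not given in the sources used here. Of 105129 transcript identifiers, 103723 are in GENCODE M21 (99593 with the same version), which gave positions, lengths and sequences.

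Estimated counts of all transcripts with 1 gene symbol were added and then rounded. Genes kept by filterByExpr were scaled by TMM (factors from 0.763 in A8 to 1.20 in A25) and tested with edgeR 4.0.16 (glmQLFit, glmQLFTest) in R 4.3.3, 3 libraries against 5, with Benjamini-Hochberg adjustment. Transcripts were tested likewise, and transcript usage with diffSpliceDGE. On simulated counts diffSpliceDGE and DESeq2's Wald test made more false calls than their nominal rate. The standard error is the size of the log2 fold change over the square root of F, and 95% intervals follow from it with Student's t at the test's degrees of freedom (10.3 for the genes whose interval is given). DESeq2 1.42.0, other scalings and filters, a muscle marker covariate and left-out libraries were alternatives. TPM used annotated lengths. Python 3.11.15 with numpy 2.4.6, pandas 2.3.3 and matplotlib 3.10.9 did the rest. Library totals lay between 17558090 and 67498055 counts. Intervals and the floor of 3 counts cover counting error or the spread between these libraries only, as amplified reads are not independent molecules and the labels do not state in words that each library is a separate animal. No paired analysis was possible because the labels share no animal numbers between groups.

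The genes of the group and all gene lists were chosen with earlier results of these data known. Named genes are the 9 members, *Elavl1*, the genes of each pathway list past the threshold (else the 2 with the smallest unadjusted p), the marker of each cell type list with the highest mean CPM, which is not corrected for transcript length, and the 5 genes with the highest Pearson correlation with *Gpt2* in log2 CPM (prior count 2) among genes with a mean of at least 1 CPM. Other genes are named to complete a count or were chosen after their values were seen (*Bcat2*, *Dnaja2*). Some genes of these lists are not reported here and are in none of the list counts. *Pycr3* was read under its older symbol *Pycrl*.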

Additional observations from a re-analysis of the deposited data

Results flagged for a closer look

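Among 26 results examined in the 5 *Adipo-HuR-/-*-labelled libraries, 2 had 1 library far from the other 4 by Dixon's ratio of gap to range, where chance alone gives about 1 in 20. *Abat* had 0.190 CPM in A25, against 0.889 to 1.14 CPM in the other 4, and that value stands for 4 counts in a shallow library. *Sms* had 3.42 CPM in A25, against 3.86 to 3.98 CPM in the other 4, farther from the control-labelled libraries than the rest.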

How the results depend on the processing

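The log2 fold change of *Gpt2*, given as a description, lay between −3.64 and −3.25 over 17 alternatives. Of 118 refits of the 7 other tested genes, 110 kept direction and side of the threshold, 1 brought *Gpt* past it (DESeq2's Wald test, the 1 setting in which the number of these genes past the threshold was 1 and not 0), and 7 changed sign. These were *Oat* without A12 (−0.13), A24 (−0.030) or A26 (−0.068; −0.13 to 0.15 with any 1 library left out), *Glud1* with the muscle marker covariate (−0.055), without A24 and A25 (−0.0091) or without A7 (−0.018; −0.018 to 0.18 with any 1 left out), and *Abat* with A12 alone as control (−0.22), a fit in which the lone library is assumed to vary like the others. *Abat* and *Got1l1* have no value when at least 10 counts are asked of every library. *Got1l1* kept its direction in 16 alternatives and lost its call in 9.

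The number of genes past the threshold, 105, depended strongly on the setting. It was 818 with DESeq2's Wald test, 15 with the muscle marker covariate and 5 without A24 and A25. With each gene's most counted transcript it was 16. It lay between 10 (without A26) and 190 (without A12) with 1 library left out. Fewer libraries enter some of these settings, and the cause was not tested for any of them. Leaving out A7 gave 13, A25 15, A29 14 and A31 17. Scaling by total counts only shifted the log2 fold changes by a median of 0.23 and turned the share of lower genes among those past the threshold from 65.7% to 20.7%. On that scale *Gpt2* was at −3.26, *Gpt* at 1.02 and *Got2* at −0.09. With 1 library left out, between 0 and 2 transcripts passed (4 with all), and between 32 (without A12) and 207 (without A7) genes had changed transcript usage (82 with all; 45 without A25, 50 without A26, 34 without A29 and 38 without A31). The difference in the *Got1* to *Got2* ratio was between 0.79 and 1.06 with 1 library left out and 1.23 without A24 and A25. These ratio alternatives were chosen after seeing the data. A24 and A25 hold the fewest counts, and low counts limit the comparison of *Abat*, *Agxt2* and *Got1l1*.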
